A study of Mus musculus with 13 samples.

Results

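The clustered protocadherins were examined in ChIP-seq peak lists of 4T1 cells, an established mouse mammary tumor line from the BALB/cJ strain. Members were all genes whose listed symbol begins with Pcdha, Pcdhb, Pcdhga, Pcdhgb or Pcdhgc, the alpha, beta and gamma clusters of chromosome 18. RefSeq holds 58 isoform genes in these clusters, 14 alpha, 22 beta and 22 gamma. The lists named 54 of them plus the read-through transcript Pcdha4-g, or 55 of 18562 listed genes in all. Pcdhb4, Pcdhb15, Pcdhgc4 and Pcdhgc5 were in no list. The members lie between 36930285 and 37841873 of chromosome 18 (GRCm38), a stretch of 912 kb.

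H3K27me3 and H3K4me3 were profiled in sg-Ctrl cells, which carry a non-targeting guide, and in KO-N13 cells, a CRISPR/Cas9 Nup210 knockout grown from a single clone. NUP210 and the nuclear pore complex (NPC, antibody MAb414) were profiled in sg-Ctrl cells only. NUP210 is a membrane-spanning nuclear pore protein. Every condition had 1 library, so no test between conditions was possible, and an effect of the knockout cannot be told apart from a feature of the clone or of the library. Intervals in parentheses are 95% exact counting intervals and cover counting error only.

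Clustered protocadherins are cell-surface adhesion molecules of the cadherin family. They are best known in neurons, where each cell uses a few isoforms, and their mixture lets a neuron tell its own branches from those of others. In the alpha and gamma clusters each variable exon has its own promoter and is spliced to constant exons shared by the whole cluster. Each beta gene is a single exon. The C-type isoforms (Pcdhac1, Pcdhac2 and Pcdhgc3 to Pcdhgc5) stand at the end of their cluster and are used more broadly than the alternate isoforms. CTCF and cohesin bring isoform promoters to distant enhancers, and silent promoters carry DNA methylation and repressive chromatin. H3K27me3 is the mark of Polycomb repression and H3K4me3 that of active or poised promoters.

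Because alpha and gamma isoforms share their last exons, 1 peak can appear under many genes. The ends of the alpha genes lay within 3 bp of each other and those of the gamma genes within 10 bp. The 181 H3K27me3 entries of members in sg-Ctrl came from 30 distinct peaks, and the 148 in KO from 28. Distinct H3K4me3 peaks numbered 5 in sg-Ctrl and 4 in KO. There were 14 NUP210 peaks and 6 NPC peaks. All values below are of distinct peaks, in the plot of called peaks along the locus as well.

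**Figure D1:**
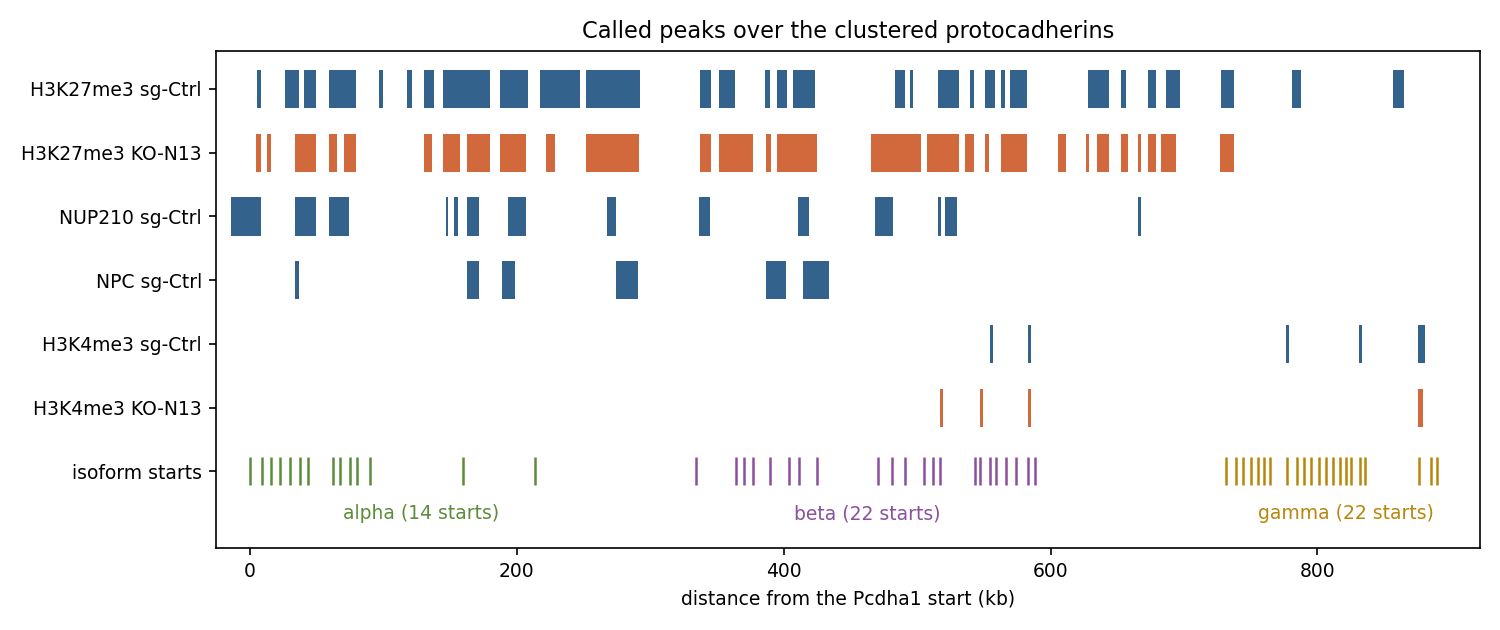
Peaks of the 6 lists that meet a clustered protocadherin, drawn by distance in kb from the Pcdha1 start (horizontal axis), 1 row per list, with isoform starts as ticks in the lowest row. Peaks narrower than 2 kb are drawn 2 kb wide. H3K27me3 covers the alpha and beta clusters in both lists, no NUP210 or NPC peak lies on the gamma cluster, and no H3K4me3 peak lies on the alpha cluster.

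The lists differ in depth. ChIP reads were divided by the size of the ChIP library relative to an IgG library and are called scaled reads here. For H3K27me3 this relative size was 0.847 in sg-Ctrl and 2.68 in KO, so KO was 3.16 times deeper. Scaling does not change which stretches were called, and the role of depth in the length and width of called peaks was not tested. For H3K4me3 it was 1.06 and 1.35, a depth ratio of 1.27. It was 1.01 in the NUP210 list and 0.606 in the NPC list. The labelled cell type was checked at promoters. The epithelial genes Krt8, Krt18, Epcam and Cdh1 had H3K4me3 in both lists, and the immune genes Ptprc and Cd3e in neither. Peak lists do not show whether Nup210 was disrupted.

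The study asked how chromatin marks differ when NUP210 is lost. H3K27me3 covered nearly the same length of the locus in sg-Ctrl and KO, but was distributed differently over the clusters. Peaks covered 345 kb of the locus in sg-Ctrl and 350 kb in KO, of which 264 kb was shared. Among peaks at least 2-fold over IgG the lengths were 265 and 185 kb, a ratio of 0.698 in place of 1.01. Over the alpha cluster the covered length was lower in KO, over the beta cluster higher, and over the gamma cluster lower. Across all listed genes the covered length in KO was 1.19 times that in sg-Ctrl.

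Over the alpha cluster, H3K27me3 peaks covered 148 kb in sg-Ctrl (57.4% of the cluster) and 106 kb in KO (41.1%), a ratio of 0.716, which was 0.217 among peaks at least 2-fold over IgG. Nearly all of the KO length, 97.7 kb, was also covered in sg-Ctrl. The difference was larger in the part from the Pcdhac1 start onward. From the start of Pcdhac1 to the cluster's end, coverage was 76.5 kb in sg-Ctrl and 48.7 kb in KO, against 71.1 and 57 kb before that start. Much of this difference came from 1 region, 37148001 to 37178000, with 30 kb of peak in sg-Ctrl and 7 kb in KO. The peak over the cluster's end, from 37182001, was 41 kb in sg-Ctrl and 40 kb in KO. Pcdhac2, the last alpha isoform, had 35.7 kb of its gene body under H3K27me3 in sg-Ctrl and 12.7 kb in KO, which includes the same region. Pcdha1, the first, spans the whole cluster and had the cluster's values.

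Over the beta cluster, peaks covered 101 kb in sg-Ctrl (39.4% of the cluster) and 158 kb in KO (61.6%), a ratio of 1.56. Of the KO length, 63 kb was covered in KO alone, and 6 kb was covered in sg-Ctrl alone. There were 12 peaks in sg-Ctrl and 9 in KO, with mean widths of 8.42 and 17.6 kb, so fewer and wider peaks held the KO length. Over the gamma cluster the covered length was 21.1 kb in sg-Ctrl and 6.06 kb in KO, a ratio of 0.288. No peak lay from the Pcdhgc3 start onward in either list. The stretch between alpha and beta had 35.3 and 34.3 kb, and the stretch between beta and gamma 39.9 and 45.9 kb.

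To compare signal, overlapping peaks of both lists were joined into regions. The lists hold no reads from outside called peaks, so a ratio per kb of joined region moves with the length called. A ratio per kb of peak as called in each list, here own-peak kb, is therefore given beside it. Of 29 regions, 22 held a peak in both lists, 4 in sg-Ctrl alone and 3 in KO alone. Over all listed genes 17.4% of 10188 regions were in sg-Ctrl alone and 21.3% in KO alone. Regions were placed in a cluster by their midpoint.

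All 7 alpha regions found in both lists had fewer scaled reads per kb in KO. So did 131 of 158 such regions of chromosome 18 outside the locus, and 3057 of 6247 over all chromosomes. Summed over the 7 alpha regions, the log2 ratio of KO to sg-Ctrl was -0.82 (-0.87 to -0.76), and -0.34 per own-peak kb. The most extreme alpha region lay between 37148001 and 37178000, within the Pcdhac2 gene body. It held 737 reads over 30 kb of peak in sg-Ctrl (685 to 792) and 505 reads over 7 kb in KO (462 to 551), a log2 ratio of -2.21 (-2.37 to -2.04). Per own-peak kb the values were close, with 29.01 scaled reads in sg-Ctrl and 26.96 in KO. The called peak was thus shorter in KO, while the mean density within it differed little. Reads of the region outside the 7 kb called in KO are not in the lists.

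The 9 beta regions were all found in both lists, and 5 of them were higher in KO, against 3190 of 6247 over all chromosomes. Among the 5, the interval at 37493001 to 37513000 included 0, with 0.025 (-0.14 to 0.19). Among the lower regions, those at 37316001 to 37321000 and 37325001 to 37355000 also had intervals that included 0. Summed over the 9 regions, the log2 ratio was 0.21 (0.15 to 0.27). Per own-peak kb it was -0.44, from 32.9 scaled reads in sg-Ctrl to 24.3 in KO. As called, beta peaks were thus longer and less dense in the deeper KO list. The highest ratio was at 37396001 to 37433000, which holds the starts of Pcdhb9, Pcdhb10 and Pcdhb11. It held 358 reads over 9 kb in sg-Ctrl and 2332 reads over 37 kb in KO, a log2 ratio of 1.04 (0.88 to 1.21), with -0.996 per own-peak kb. A second region, 37282001 to 37307000, with the starts of Pcdhb2 and Pcdhb3, held 221 reads over 12 kb and 1215 over 25 kb, a log2 ratio of 0.80 (0.59 to 1.01), with -0.26 per own-peak kb. Of the 4 beta regions with a lower ratio in KO, the lowest was at the Pcdhb17 start, 37481001 to 37489000. It held 187 reads over 8 kb in sg-Ctrl and 287 over 3 kb in KO, a log2 ratio of -1.04 (-1.31 to -0.77). Per own-peak kb the direction turned, to 0.37. Its folds over IgG were low in both lists, 1.19 and 1.13. Among all regions found in both lists, 9.56% were at least 2-fold lower and 12.1% at least 2-fold higher in KO. In the locus these were 2 and 1 of 22.

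The gamma cluster kept a single region in both lists, 37657001 to 37668000 at the start of Pcdhga1. With 325 reads in sg-Ctrl and 788 in KO, its log2 ratio was -0.38 (-0.57 to -0.19), with -0.52 per own-peak kb. The gamma regions at 37711001 to 37718000, over the Pcdhga7 start, and at 37787001 to 37795000 were listed in sg-Ctrl alone, with 158 and 168 reads and folds over IgG of 2.96 and 2.58. In the alpha cluster, 37027001 to 37030000 and 37048001 to 37052000 were also in sg-Ctrl alone, with folds of 3.84 and 1.67. Of the regions in KO alone, 36943001 to 36946000 in the alpha cluster had a fold of 1.33, and 37536001 to 37542000, after the last beta gene, one of 4.22. The third, 37596001 to 37598000, had 168 reads and a fold of 0.884, below scaled IgG.

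Only 2 peaks of the locus had the same start and end in both lists. At 37268001 to 37276000, next to Pcdhb1, 276 reads in sg-Ctrl and 661 in KO gave a log2 ratio of -0.40 (-0.60 to -0.19). At 37603001 to 37609000, before the gamma cluster, 180 and 475 reads gave -0.26 (-0.51 to -0.0045). Both were below 0, as were 73.6% of the 832 such peaks in the whole lists, whose median was -0.18.

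The rest of chromosome 18 was lower in KO as well. Outside the locus, its listed H3K27me3 regions covered 5999 kb in sg-Ctrl and 4020 kb in KO, a ratio of 0.670. Of 268 regions, 97 were in sg-Ctrl alone and 13 in KO alone. The 158 found in both lists had a median log2 ratio of -0.61, and -0.39 per own-peak kb, while the medians over all chromosomes were 0.016 and -0.14. The alpha and gamma values thus lay on the same side as the chromosome, and the beta covered length on the other. The role of the chromosome-wide shift in the cluster values was not tested.

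**Figure D2:**
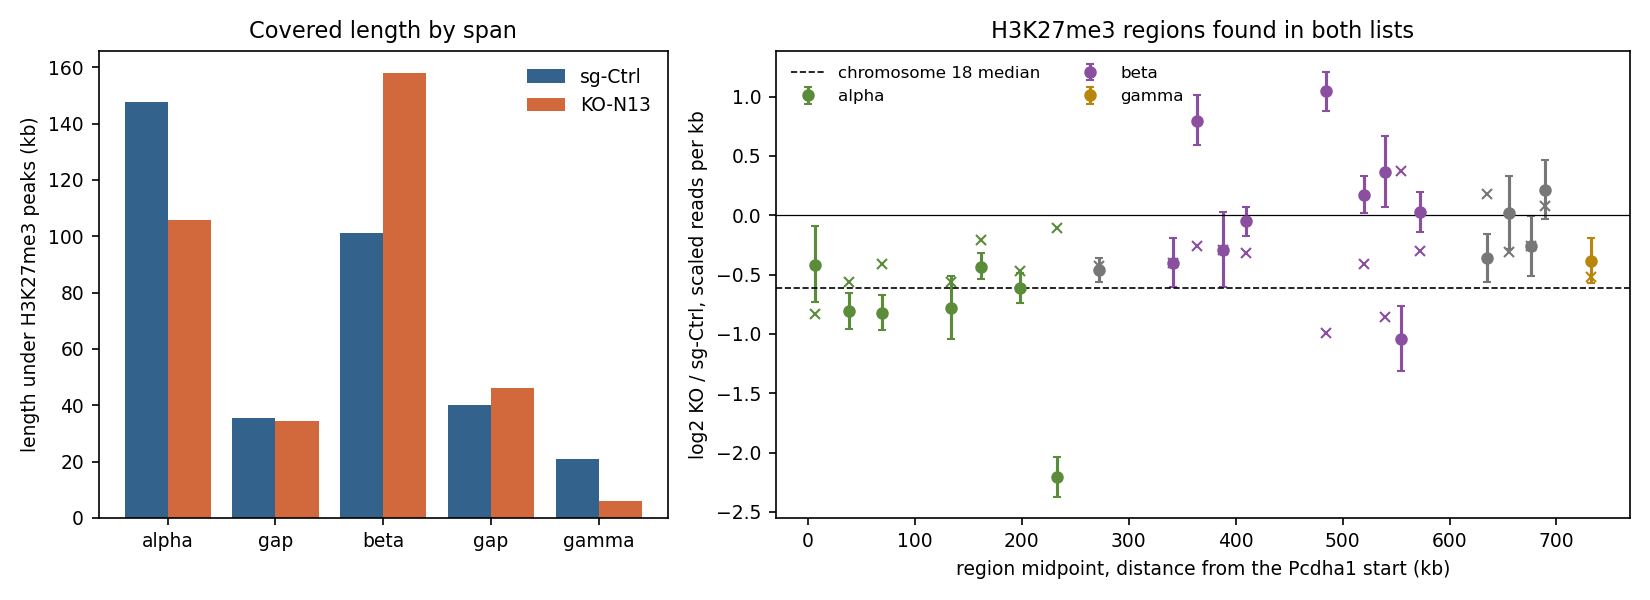
Left, length under H3K27me3 peaks in kb (vertical axis) for the 3 clusters and the stretches between them, with sg-Ctrl and KO-N13 bars. Right, log2 ratio of KO to sg-Ctrl scaled reads per kb (vertical axis) of the 22 regions found in both lists, by distance of the midpoint from the Pcdha1 start in kb. Circles are per kb of joined region with 95% counting intervals, crosses per own-peak kb, grey points lie between clusters, and the dashed line is the median of chromosome 18 regions outside the locus, -0.61. Beta regions reach 1.04 by joined region, while their crosses lie mostly below 0.

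Isoform genes listed under H3K27me3 followed these peaks. All 14 alpha genes were listed in both. Of the beta genes, 10 were listed in sg-Ctrl and 15 in KO. Pcdhb2, Pcdhb3, Pcdhb5, Pcdhb6, Pcdhb9 and Pcdhb12 were listed in KO alone and Pcdhb17 in sg-Ctrl alone. Of the gamma genes, 19 were listed in sg-Ctrl and Pcdhga1 alone in KO. The other 18 rested on the same 2 peaks named above, so they are not separate observations. Over all genes with an H3K27me3 peak in either list, 12.6% were listed in sg-Ctrl alone and 15.1% in KO alone.

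Isoform starts are the promoters among which cells choose, and each start is a separate position. H3K27me3 peaks held 12 of 58 starts in sg-Ctrl and 17 in KO. Among all 18562 listed genes, 14.9% of starts lay under H3K27me3 in sg-Ctrl and 16.7% in KO. The alpha count was 6 in sg-Ctrl and 4 in KO. Pcdha7, Pcdha8 and Pcdha10 lay under a peak in both lists, Pcdha5, Pcdha9 and Pcdhac1 in sg-Ctrl alone and Pcdha6 in KO alone. The beta count was 4 in sg-Ctrl and 12 in KO. Pcdhb7, Pcdhb14 and Pcdhb20 lay under a peak in both lists. Pcdhb2, Pcdhb3, Pcdhb5, Pcdhb6, Pcdhb9, Pcdhb10, Pcdhb11, Pcdhb13 and Pcdhb19 did so in KO alone, and Pcdhb17 in sg-Ctrl alone. The gamma count was 2 and 1, with Pcdhga1 in both and Pcdhga7 in sg-Ctrl alone. Of the 10 starts under a peak in KO alone, 9 were thus beta starts. Several of them shared a KO peak, Pcdhb2 with Pcdhb3 and Pcdhb9 with Pcdhb10 and Pcdhb11, so the 9 are not all separate observations.

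H3K4me3 was present at few isoform promoters. The lists give peaks within 4 kb of a start, and the members shared 7 distinct positions, 6 of which contained an isoform start. The seventh began 33 bp after one. No alpha isoform had an H3K4me3 peak in either list. Counting every gene whose window a peak meets, 8 of the 54 listed isoform genes had one in sg-Ctrl and 5 in KO. Of all 18562 listed genes, 67.1% had one in sg-Ctrl and 67% in KO. The position with the most reads, Pcdhgc3, was lower in KO, and the Pcdhb21 position was higher.

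Pcdhgc3, a C-type gamma isoform, had the member peak with the most reads and the most scaled reads per kb in both lists. The sg-Ctrl peak, 37805601 to 37810600, had 2807 reads (2704 to 2913), or 529 scaled reads per kb, 24.1-fold over IgG. In KO it held 1424 reads (1351 to 1500) over 4 kb rather than 5 kb, or 264 scaled reads per kb, 11.2-fold over IgG. The log2 ratio per kb was -1.002 (-1.095 to -0.91). Most genes were also lower in KO. The median over 12197 genes with a peak in both lists was -0.50, and 88.7% were below 0. Of these genes 9.66% were at least 2-fold lower in KO and 0.525% at least 2-fold higher. Pcdhgc3 was among the former by a margin smaller than its counting interval, and was at -0.54 when the libraries were scaled by the reads of shared peaks.

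At the Pcdhb21 start, 37513401 to 37514600, sg-Ctrl had 160 reads (136 to 187), or 126 scaled reads per kb, 6.56-fold over IgG. KO had 331 reads (296 to 369) over 1 kb rather than 1.2 kb, or 246 scaled reads per kb, 10.7-fold over IgG. The log2 ratio was 0.97 (0.69 to 1.25), just under 2-fold. Of all genes with a peak in both lists, 99.4% had a lower ratio. Peaks less dense than this one made up 9.28% of sg-Ctrl peaks and 26.1% of KO peaks. Pcdhb22, the last beta gene, was listed through the same peak and is not a further case. This position lay 401 bp from the nearest H3K27me3 peak in both lists and under none.

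The remaining 5 positions were weak and listed in 1 condition each, so no ratio can be given. In sg-Ctrl alone, the Pcdhb17 start had 47 reads (34.5 to 62.5) and a fold over IgG of 1.53, with Pcdhb18 listed through the same peak. The Pcdhga6 start had 44 reads (32.0 to 59.1) and a fold of 8.30. The Pcdhgb8 start had 70 reads (54.6 to 88.4) and a fold of 3.47, with Pcdhga12 listed through the same peak. These peaks had 65.98 to 73.8 scaled reads per kb, and at most 4.07% of sg-Ctrl peaks were less dense.

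In KO alone, the Pcdhb14 start had 57 reads (43.2 to 73.9) against 0 IgG reads, at least 14.1-fold over IgG when 3 reads are set as the limit of a count of 0. The Pcdhb16 position had 63 reads (48.4 to 80.6) against 0, at least 15.6-fold. They had 70.5 and 77.9 scaled reads per kb, and at most 5.21% of KO peaks were less dense. Both positions in KO alone were beta positions, and those in sg-Ctrl alone were 1 beta and 2 gamma. Over all genes with a TSS peak in either list, 2.02% were listed in sg-Ctrl alone and 1.89% in KO alone.

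At the Pcdhb17 and Pcdhb14 starts peaks of both marks were listed. The Pcdhb17 start lay under H3K4me3 and H3K27me3 in sg-Ctrl and under neither in KO, where the nearest H3K27me3 peak was 1001 bp from the H3K4me3 position. At that start neither sg-Ctrl peak was 2-fold over IgG, and the H3K27me3 peak had an FDR of 0.0105. The Pcdhb14 start lay under H3K27me3 in both lists and under H3K4me3 in KO alone. Each mark was measured on a population of cells, and it is not known whether both were on the same molecules.

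Neighbouring genes were compared with the 2 member positions found in both lists. Within 500 kb of the locus, 28 other genes had an H3K4me3 peak in both lists, from 22 distinct peaks. All 28 had a log2 ratio below 0, from -1.39 to -0.17, with a median of -0.76, and 5 were at least 2-fold lower. Slc25a2 and Taf7 lie between the beta and gamma clusters and share a peak with a ratio of -0.65. Hdac3, past the gamma cluster, had -0.60. Over chromosome 18 as a whole the median of 295 genes was -0.72, and 56 were at least 2-fold lower and 0 higher. The Pcdhgc3 value lay within the range of its neighbours, and the Pcdhb21 value above all of them. The Pcdhb21 peak was weaker than theirs, with 126 scaled reads per kb in sg-Ctrl against 150 to 1784. Ratios at matched density were not compared.

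**Figure D3:**
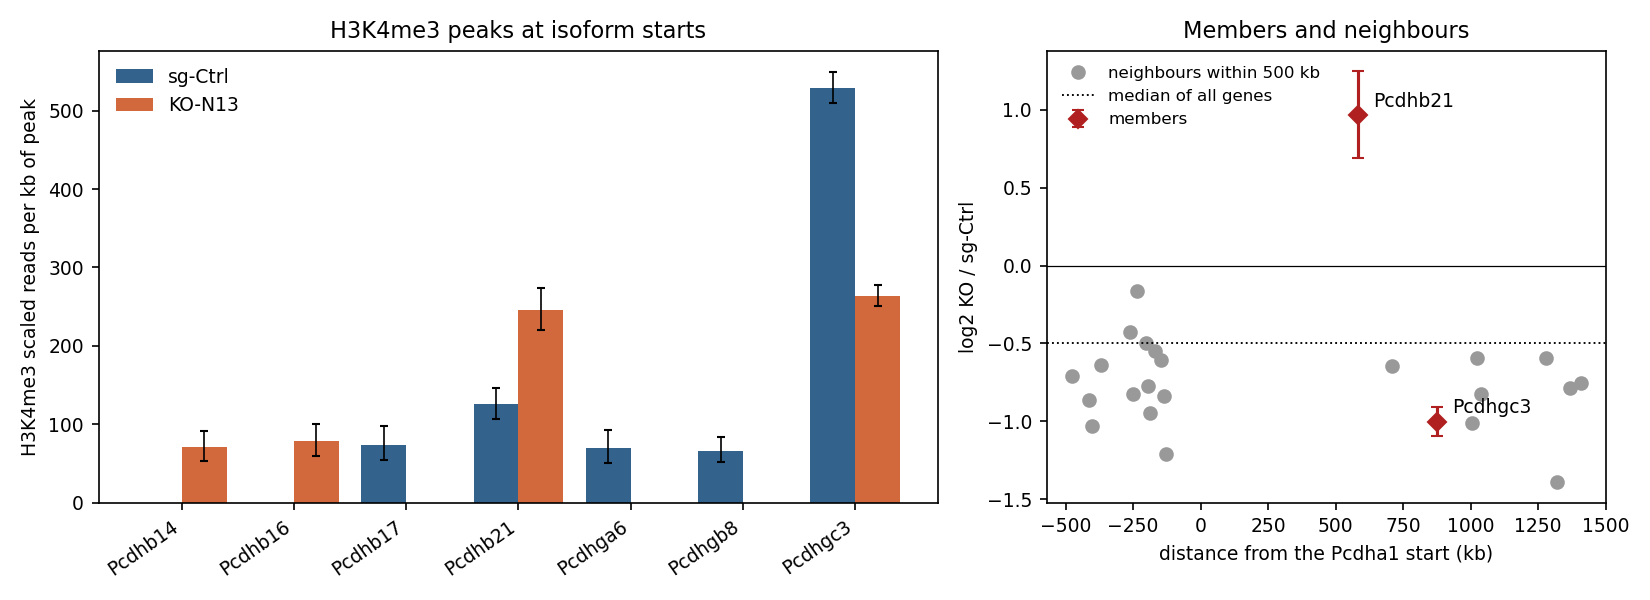
Left, H3K4me3 scaled reads per kb of peak (vertical axis) at the 7 member positions in sg-Ctrl and KO-N13, with 95% Poisson intervals of the reads and no bar where no peak was listed. Right, log2 ratio of KO to sg-Ctrl (vertical axis) by distance from the Pcdha1 start in kb, for Pcdhb21 and Pcdhgc3 with 95% counting intervals and for the 22 peaks of neighbouring genes, with the median of all genes as a dotted line at -0.50. Pcdhb21 at 0.97 lies above every neighbour, and Pcdhgc3 at -1.002 lies among them. In sg-Ctrl the Pcdhb21 peak was less dense than that of every neighbour.

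NUP210 was present over the alpha and beta clusters of sg-Ctrl cells and had no listed peak over the gamma cluster. The 14 peaks covered 115 kb of the locus, with 66.7 kb in the alpha cluster, 39 kb in the beta cluster, 7 kb and 2 kb in the stretches between clusters and 0 kb in the gamma cluster. Most were only slightly above IgG. Their folds ran from 1.14 to 6.70 with a median of 1.39, against a median of 1.19 over all 13204 NUP210 peaks. At least 2-fold over IgG were 3 of the 14, and 3.21% of all NUP210 peaks.

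The NUP210 peak with the highest fold over IgG, at 37446001 to 37447000, overlapped the end of Pcdhb13 and lay before the start of Pcdhb14. It held 61 reads (46.7 to 78.4) against 9 IgG reads, a fold of 6.70, and ended 657 bp before the Pcdhb14 start. The sg-Ctrl H3K27me3 peak over the same position, 37446001 to 37462000, had the highest H3K27me3 fold of the locus, 6.61 with 448 reads against 80, and 96.5% of H3K27me3 peaks had a lower one. Its signal was not high, with 33.1 scaled reads per kb against a median of 33.7 for the member peaks in sg-Ctrl. In KO the H3K27me3 peak there ran from 37438001 to 37462000 with a fold of 4.42. The H3K4me3 peak of the Pcdhb14 start, listed in KO alone, lay 601 bp from this NUP210 peak. The other NUP210 peaks past 2-fold were at 37083001 to 37086000, with 114 reads against 42 and a fold of 2.68, and at 37198001 to 37205000, with 152 reads against 61 and a fold of 2.46. The first lay 4136 bp before the Pcdhac1 start, and the second between the alpha and beta clusters.

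NUP210 peaks held 8 of the 58 isoform starts, those of Pcdha1, Pcdha6, Pcdha7, Pcdha8, Pcdha9, Pcdhb7, Pcdhb9 and Pcdhb10. Of all listed gene starts, 15.7% lay under NUP210, so this count was near the background. The widest peak, 36916001 to 36939000, straddled the Pcdha1 start with a fold of 1.70. Of the 14 peaks, 12 overlapped an H3K27me3 peak of sg-Ctrl and 14 one of KO. Over all NUP210 peaks, 34.9% overlapped H3K27me3 in sg-Ctrl and 35.6% in KO. In length, 89 kb of H3K27me3 in sg-Ctrl was shared with NUP210, which was 77.6% of the NUP210 length and 25.8% of the H3K27me3 length. In KO it was 104 kb, or 90.7% and 29.7%. The NUP210 peak over Pcdhb9 and Pcdhb10, 37399001 to 37412000, overlapped H3K27me3 in KO but not in sg-Ctrl, and so did the peak at 37596001 to 37598000, where the KO H3K27me3 peak was below scaled IgG.

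The NPC antibody MAb414 recognises several pore proteins. Its 6 peaks covered 72 kb and were barely above IgG, with folds of 1.01 to 1.30. An FDR above 0.05 was given to 3 of them, and none reached 2-fold. They lay over the alpha cluster (22 kb), the following stretch (16 kb) and the beta cluster (34 kb), and held the starts of Pcdhb5 and Pcdhb8. NPC peaks held 14.2% of all listed gene starts. Counting every listed NPC peak, 5 of the 14 NUP210 peaks were overlapped by one, against 70.2% of all NUP210 peaks. The NPC peak at 36902001 to 36929000 ended before the Pcdha1 start. It was listed under the neighbouring gene Gm6756 and is not among the 6.

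**Figure D4:**
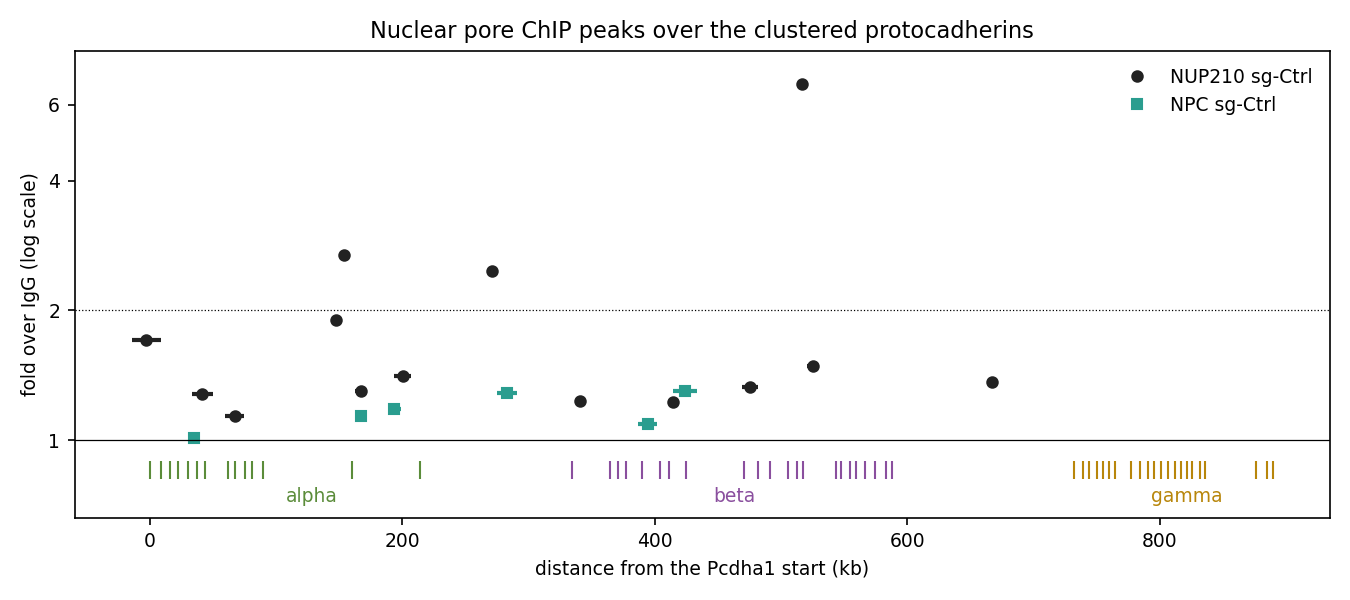
Fold over IgG (vertical axis, log scale) of the 14 NUP210 and 6 NPC peaks in sg-Ctrl cells, by distance from the Pcdha1 start in kb. Horizontal bars span each peak, coloured ticks mark isoform starts and the dotted line marks 2-fold. A single NUP210 peak in the beta cluster reaches 6.70, and all NPC peaks lie between 1.01 and 1.30.

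Related gene lists were read in the same way. For the H3K27me3 counts of these lists, the background is that 5853 of all 18562 listed genes had an H3K27me3 peak in either list. Gene length was not matched. Of 12 non-clustered protocadherins, single genes of the same family, 7 had H3K27me3 in sg-Ctrl and 6 in KO, with 5 in both. Pcdh7 had 132 kb under the mark in sg-Ctrl and 0 kb in KO, and Pcdh15 had 435 and 579 kb. H3K4me3 was listed for 3 in sg-Ctrl and 2 in KO, with log2 ratios of -0.59 for Pcdh1 and -0.29 for Pcdh19. Of 20 classical cadherins, the calcium-dependent adhesion genes, 11 had H3K27me3 in sg-Ctrl and 13 in KO. For 4 of them H3K4me3 ratios ran from -0.75 for Cdh13 to 0.67 for Cdh1, the epithelial cadherin. Of 10 atypical cadherins, 4 had H3K27me3 in sg-Ctrl and 3 in KO, and H3K4me3 ratios were -0.79 for Celsr1 and 0.25 for Celsr2.

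Listed genes of CTCF, cohesin and silencing had H3K4me3 in both lists and no H3K27me3. Of 12 CTCF and cohesin genes, 11 had a peak in both, with a median log2 ratio of -0.67 and 0 of them 2-fold lower or higher. Ctcf had -0.67 and the cohesin loader Nipbl -0.71. Of 9 silencing regulators 1 was at least 2-fold lower, the Polycomb subunit Suz12 at -1.25, and the median was -0.21. Smchd1, which is needed to silence clustered protocadherins in several tissues, had -0.90. Of 14 genes for intracellular partners of protocadherins, 11 had H3K4me3 in both lists with a median of -0.87. The share of all genes at least 2-fold lower was 9.66%, as above. The 3 partner genes past that limit were Nckap1 at -1.02 and Wasf2 at -1.31, subunits of the actin-regulating WAVE complex, and Rac1 at -1.08, a GTPase that activates it. Of these 14 genes, 4 had H3K27me3 in sg-Ctrl and 3 in KO.

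Hox clusters are another set of gene clusters under Polycomb control. Of 28 listed Hox genes, 12 had H3K27me3 in sg-Ctrl and 12 in KO, with 9 in both. H3K4me3 was listed for 14 in sg-Ctrl, from 9 distinct peaks, and 18 in KO, from 12. The Hox ratios had a median of -0.94 and were highest at Hoxa13, with 1.06, and several Hoxa genes share 1 peak. NUP210 and NPC peaks were listed for 0 of the 28 Hox genes. Each was listed for 7 of the 12 non-clustered protocadherins, 11 of the 20 classical cadherins and 3 of the 10 atypical cadherins. The counts were 9 of 12 for CTCF and cohesin genes, 3 of 9 for silencing regulators and 5 of 14 for partner genes. Of the 54 listed isoform genes, 19 had a NUP210 peak and 16 an NPC peak. In each case 13 were alpha genes, which share peaks and are not separate observations. Pore peaks were thus also listed for genes outside the clusters. Shares over all listed genes were not computed and gene length was not matched, so these counts have no background beside them.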

How the data were processed

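The 6 lists come from ChIP-seq of 4T1 cells. Per the study's methods, the authors called peaks with SICER, and the labels name an IgG control for each target. The window was 200 bp in the H3K4me3 lists and 1000 bp in those of H3K27me3 and NUP210, and for NPC it is not given in the sources used here. The deposited lists pair peaks with gene bodies or, for H3K4me3, with starts within 4 kb, and hold raw read counts of ChIP and IgG. As deposited, they also hold p-values from the peak caller, each with an FDR, and the ratio of ChIP to IgG corrected for library size, given as a fold. Peaks away from genes were not analysed here, nor were the 4 RNA-seq and 3 IgG samples.

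Rows were collapsed to distinct peaks with python 3.11.15, pandas 2.3.3, numpy 2.4.6 and scipy 1.17.1. Library ratios were recovered from counts and fold. The labels name more than 1 genome build. Starts of all 54 listed isoforms lay within 300 bp of GRCm38 RefSeq starts (291 bp at most), and members without a listing were placed by RefSeq. Peaks of both lists that overlapped by at least 1 bp were joined. For a gene with several TSS peaks, the one with the most reads per kb was used. Poisson intervals for reads and binomial intervals for ratios are exact at 95%. A count of 0 was set to 3 reads. The H3K4me3 ratio was tested on counts simulated over the sg-Ctrl peaks, and the joining of regions on a few constructed peaks. H3K27me3 ratios and differences in peak calling were not simulated. Total sequencing depth is not in the lists. Reads in listed peaks numbered 5866175 to 26811061.

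Any member could be named. Other genes were named only from fixed lists, Hox clusters or within 500 kb. The members and lists were chosen with earlier results of these data known. No sequence is shown. Alternatives were another scaling, other units of length, an FDR of at most 0.01 and a fold of at least 2.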

Additional observations from a re-analysis of the deposited data

How the results depend on the processing

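Over 18 results, 50 alternatives were computed. Of these, 34 kept the value within its counting interval or, for counts and lengths, within 1.5 times, 14 moved it further and 2 turned its direction. With a fold over IgG of at least 2, the ratio of H3K27me3 covered length in KO to sg-Ctrl turned from 1.01 to 0.698 over the whole locus and moved from 0.716 to 0.217 over the alpha cluster, the KO length fell to 185 kb, NUP210 to 11 kb and NPC to 0 kb. At an FDR of at most 0.01 NPC covered 35 kb. The direction of the beta and gamma covered lengths held under each alternative run. Per own-peak kb, the H3K27me3 log2 ratio of beta turned from 0.21 to -0.44, alpha moved to -0.34 and all clusters to -0.38. Scaling by the reads of shared peaks, which adds 0.15 to H3K27me3 and 0.47 to H3K4me3 log2 ratios, gave -0.16 for all clusters, -0.67 for alpha, 0.35 for beta, -0.54 for Pcdhgc3 and 1.43 for Pcdhb21. By total reads of the peak, or of the joined region, Pcdhgc3 was -1.32. Leaving out peaks on Pcdha4-g alone, an alternative chosen after seeing the data, turned no direction. Leaving out a replicate was not run, since each condition has 1 library. No paired analysis was possible because each condition has 1 library and the results come from no test. Folds of 1.01 to 1.30 limit what the NPC list can show, and 44 to 70 reads the H3K4me3 positions listed in 1 condition. The cause of the changes other than those made by the alternative itself was not tested.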
